A study of Mus musculus with 20 samples.

Results

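The olfactory receptor genes of mouse chromosome 9 were examined for 5-formylcytosine (5fC), an oxidised form of 5-methylcytosine, in tissues of the embryo. The members were taken by symbol: every gene of the NCBIM37 (mm9) annotation whose symbol begins with Olfr and that lies on chromosome 9. Symbols marked -ps, for pseudogene, were left out, which removed 6 of 135 symbols and left 129 of the 37273 annotated genes. Each member was examined over a window made of the gene body and 2 kb on both sides, and the windows together held 765150 bases. The annotation gives 127 members as protein-coding and 2, Olfr837 and Olfr908, as pseudogenes.

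Olfactory receptors are G protein-coupled receptors of the cilia of olfactory sensory neurons. They form the largest gene family of the mouse, lie in tandem clusters and have a coding sequence without introns. Each mature sensory neuron expresses a single allele of a single receptor gene and keeps the rest of the family closed in heterochromatin, and outside the nose the family is mostly silent. On the DNA side, TET enzymes oxidise 5-methylcytosine stepwise to 5-hydroxymethylcytosine, 5fC and 5-carboxylcytosine, and thymine DNA glycosylase (TDG) cuts out the last 2 for repair. Without TDG this excision is missing, although 5fC can still be lost when DNA replicates. The question put to the data was how much 5fC is found over a family of genes that is mostly silent outside the nose. RNA was not measured in these libraries, so the silence of the family is background here and not a result.

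The libraries came from E11.5 mouse embryos, WT or homozygous Tdg null, from intercrosses of heterozygous mice. DNA was dissected from hindbrain (4 WT and 4 Tdg null embryos, 1 of each genotype from each of litters A, O, Q and Z) and from heart, liver and carcass (2 WT and 2 Tdg null embryos, 1 of each genotype in each of 2 litter pairs, which the labels name a and b). The knock-out is carried in every cell of the embryo, and each tissue is a mixture of cell types. A chemical pull-down captured DNA fragments with 5fC, and peaks, the stretches where sequenced fragments piled up, were called in each library. The Tdg null liver of pair b, which the study set aside for poor quality, held 228 peaks, none of them in a member window, and was left out, so that 19 of 20 libraries were used. Heart, liver and carcass of a pair came from the same embryos and are not independent of each other.

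Peak positions do not tell how deeply a library was sequenced, so the number of peaks is given in its place. Tdg null libraries held 101344 to 254319 peaks and WT libraries 1563 to 42012. The sets of libraries therefore differ in how much they could show, and each count over the members is given beside what an even spread of the same library's peaks over the genome would place in their windows.

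The members lay in 2 groups of neighbours, with members less than 1 Mb apart taken as one group. The first ran from Olfr24 (chr9:18559100-18560153, minus strand) to Olfr18 (chr9:20118336-20140538, minus strand) and held 36 members over 1.58 Mb. The second ran from Olfr151 (chr9:37518857-37538646, minus strand), a receptor for acetophenone that is widely used to study receptor choice, to Olfr986 (chr9:39994664-39995679, plus strand) and held 93 members over 2.48 Mb. The groups were 17.4 Mb apart. Gene models were short, with a median length of 951 bp (interquartile range 936 to 1065 bp), and 113 of 129 were shorter than 2000 bp. Many of these models hold little more than the coding exon, so the 2 kb upstream of such a model need not contain the promoter.

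The sequences under the peaks show where 5fC was called in a window or across its end. The stretches below lay next to the 4 members with the highest mean share of window bases under peaks in the Tdg null libraries, and each is the part under peaks of the most libraries. All are given 5′ to 3′ on the plus strand of NCBIM37, with CpG sites, the main substrate of DNA methylation, in capitals. None of them overlaps an annotated gene.
Olfr150, downstream, chr9:39547201-39547400: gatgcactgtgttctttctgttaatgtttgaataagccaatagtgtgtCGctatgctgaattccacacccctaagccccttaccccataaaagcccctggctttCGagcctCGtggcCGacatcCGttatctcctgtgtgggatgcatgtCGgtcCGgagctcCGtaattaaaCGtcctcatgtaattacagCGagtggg
Olfr978, downstream, chr9:39804101-39804400: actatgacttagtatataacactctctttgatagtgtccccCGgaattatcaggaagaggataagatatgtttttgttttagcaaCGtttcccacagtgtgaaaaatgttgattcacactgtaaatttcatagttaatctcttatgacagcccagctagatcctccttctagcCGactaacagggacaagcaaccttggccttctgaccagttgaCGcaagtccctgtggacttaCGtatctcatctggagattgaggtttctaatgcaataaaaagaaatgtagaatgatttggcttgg
Olfr983, upstream, chr9:39902301-39902600: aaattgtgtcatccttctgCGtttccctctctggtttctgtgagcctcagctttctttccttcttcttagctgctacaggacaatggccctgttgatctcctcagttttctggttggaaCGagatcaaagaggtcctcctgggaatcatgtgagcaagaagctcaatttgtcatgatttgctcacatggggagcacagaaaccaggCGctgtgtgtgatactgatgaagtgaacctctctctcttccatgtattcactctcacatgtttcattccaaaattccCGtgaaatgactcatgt
Olfr986, downstream, chr9:39996401-39996500: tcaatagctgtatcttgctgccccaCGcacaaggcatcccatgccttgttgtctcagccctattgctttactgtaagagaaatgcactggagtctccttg
For contrast, the first 200 coding bases of the 2 members with a peak in the most libraries and of Olfr24, the first member of the chromosome, are given on the strand of each gene. None of these was under a peak in any library.
Olfr150, coding, plus strand, chr9:39544402-39544601: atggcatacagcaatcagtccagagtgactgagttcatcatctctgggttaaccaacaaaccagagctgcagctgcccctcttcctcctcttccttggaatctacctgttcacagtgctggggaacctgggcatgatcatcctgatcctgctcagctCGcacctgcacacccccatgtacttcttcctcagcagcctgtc
Olfr978, coding, plus strand, chr9:39801397-39801596: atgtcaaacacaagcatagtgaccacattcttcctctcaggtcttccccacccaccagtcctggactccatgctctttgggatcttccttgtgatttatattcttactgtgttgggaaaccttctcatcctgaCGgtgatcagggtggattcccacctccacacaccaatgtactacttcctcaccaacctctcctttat
Olfr24, coding, minus strand, chr9:18559878-18560077: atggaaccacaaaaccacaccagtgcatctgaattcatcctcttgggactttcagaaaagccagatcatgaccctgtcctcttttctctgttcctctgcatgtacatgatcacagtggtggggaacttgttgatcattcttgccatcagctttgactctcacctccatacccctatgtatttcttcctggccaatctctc
The stretch next to Olfr150 held 10 CpG sites in 200 bp and the stretch next to Olfr978 held 5 in 300 bp. Both stretches run past the end of the window, so these counts cover some bases outside it. The printed coding starts held 1, 1 and 0 CpG sites in 200 bp, in the order above, and the whole coding sequences held 5 in 936 bp (Olfr150), 11 in 933 bp (Olfr978) and 9 in 939 bp (Olfr24).

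Few 5fC peaks lay over the members in any tissue or genotype. Of 129 members, 119 had no peak in any of the 19 libraries and 10 (7.75%) had a peak in at least 1. The same measure reached 72.6% of all genes, 85.4% of the other genes of chromosome 9 and 67.6% of the 111 other protein-coding genes of chromosome 9 that were, like most members, at most 2000 bp long. Nearer to the members were Olfr genes of other chromosomes with 14.6% and the vomeronasal receptor genes Vmn1r and Vmn2r with 16.7%. A peak in any Tdg null library was found at 9 members and a peak in any WT library at 3. Over all 19 libraries together, 3872 bases of the member windows lay under a peak, or 0.506%, against 16.5% of chromosome 9.

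In Tdg null hindbrain, the share of member bases under peaks was 0.0261% in litter A, 0 in litter O, 0.0303% in litter Q and 0.0565% in litter Z. The mean was 0.0282% ± 0.0231 (SD, n = 4), against 4.72% ± 0.631 for the other genes of chromosome 9 and 4.27% ± 0.731 for the short protein-coding genes of that chromosome. In all 4 libraries the members lay far below both sets. Relative to the whole genome, the member share came to a ratio of 0.00782 ± 0.00631 (SD, n = 4), where 1 would be the level of the genome. This ratio was 0.0322 with windows of 10 kb, 0.0261 with peak midpoints and 0 with peaks of at least 600 bp. The 4 libraries held 1, 0, 2 and 2 peaks in the windows, in the order A, O, Q and Z. An even spread of their peaks would have placed 40.6, 34.6, 44.1 and 43.5 there.

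The other Tdg null tissues had more. In heart the member share was 0.258% in pair a and 0.127% in pair b, in carcass 0.166% and 0.284%, and in the single liver library 0.149%. All 5 values lay above those of the 4 hindbrain libraries. Hindbrain came from other embryos and litters than the rest, so tissue and litter cannot be told apart in this difference, and it was not tested. The ratio to the genome was 0.0318 and 0.0349 in heart, 0.0309 and 0.0376 in carcass and 0.0491 in liver, so that these values too lay above the highest hindbrain ratio, 0.0154 in litter Z. Olfr150, whose peak lies on repeated sequence as described below, held part of these bases. Without it the member share was 0.188% and 0.0700% in heart, 0.109% and 0.228% in carcass and 0.0921% in liver, each still above the highest hindbrain value, 0.0568%. The number of peaks in the windows, Olfr150 included, was 6 and 3 in heart, 3 and 5 in carcass and 3 in liver. An even spread would have given 86.4 and 42.5, 56.5 and 75.6, and 34.2. Over the 9 Tdg null libraries, 25 peaks touched a member window, against 458.0 under an even spread.

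**Figure D1:**
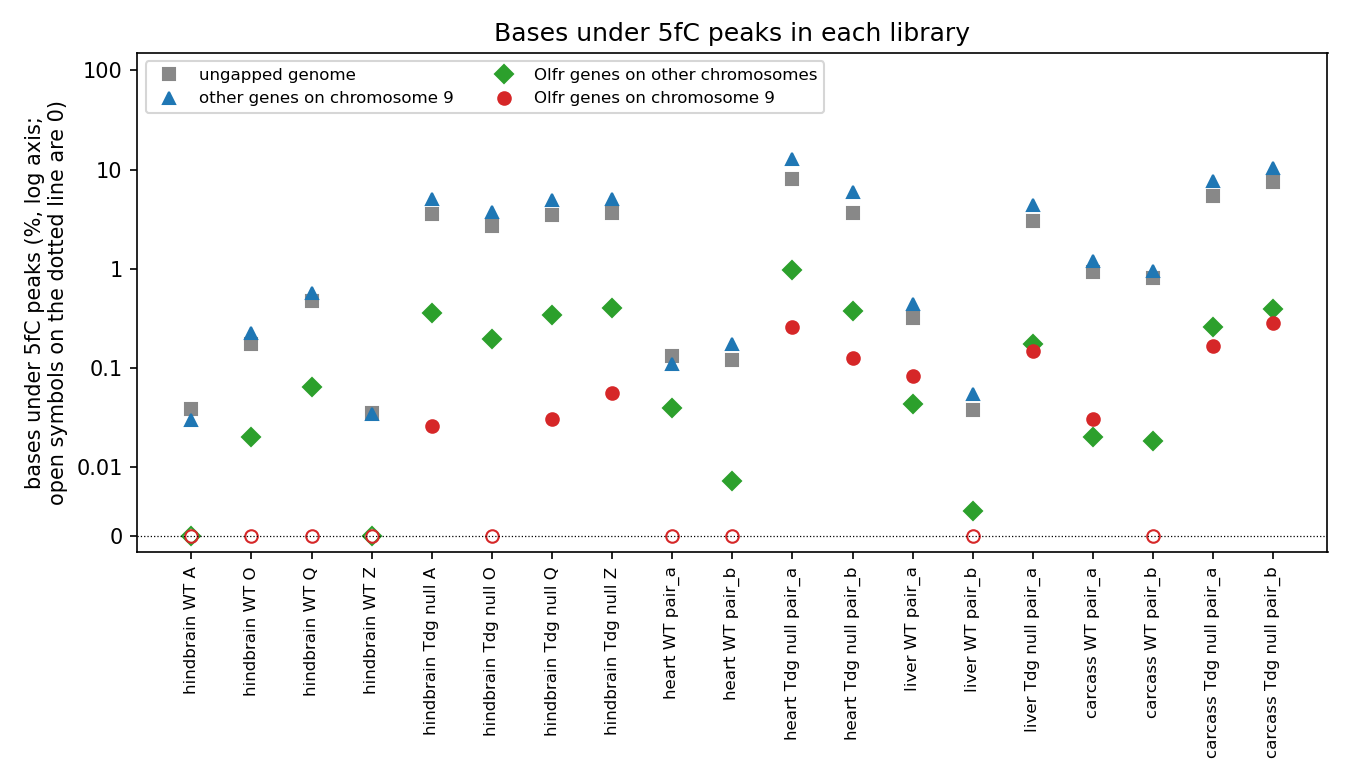
Share of bases under 5fC peaks (percent, log axis) in each of the 19 libraries for the 129 Olfr genes of chromosome 9, Olfr genes of other chromosomes, other genes of chromosome 9 and the ungapped genome. Open symbols on the dotted line are shares of 0. The Olfr genes of chromosome 9 lay below the genome and below the other genes of chromosome 9 in 19 of 19 libraries. Of these, 9 had 0 peaks in the member windows. In 6 of the 10 WT libraries an even spread would have placed 3 or fewer peaks there, so no lack could be shown.

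Taken one by one, most WT libraries held too few peaks to say much about so small a target. Over the 10 WT libraries together, 4 peaks touched a member window, against 46.3 under an even spread. The member share was 0 in all 4 hindbrain, both heart and 1 of 2 liver libraries, and also in the carcass library of pair b. It was 0.0836% in the liver of pair a and 0.0303% in the carcass of pair a. In 6 of the 10 WT libraries even an even spread would have placed 3 or fewer peaks in the windows, and a count of 0 allows up to 3, so no lack of peaks could be shown there. The 2 WT libraries with 0 peaks and more than 3 under an even spread were hindbrain of litter Q (7.06) and carcass of pair b (11.54). Carcass of pair a held 1 peak against 13.8 and liver of pair a 3 against 5.46. These limits cover counting error only. Liver of pair a was the WT library nearest to the genome, with a ratio of 0.262. Its member windows held peaks at Olfr150, Olfr978 and Olfr18.

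Peaks were also far away. In Tdg null hindbrain the median member window was 228 kb from the nearest peak (mean of 4 library medians, which ranged from 78.2 to 319.8 kb). For other protein-coding genes of chromosome 9 that median was 0, since most had a peak in the window, for the short ones among them 3.91 kb, and for Olfr genes of other chromosomes 105 kb. In Tdg null heart, carcass and liver the members' median was 163, 174 and 354 kb. In Tdg null hindbrain the first members of the 2 groups were nearer to a peak than most, with mean distances of 21.7 kb for Olfr24 and 17.98 kb for Olfr151. In Tdg null heart Olfr24 was 288.8 kb away, above the members' median of 163 kb, and Olfr151 was 1.26 kb away.

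**Figure D2:**
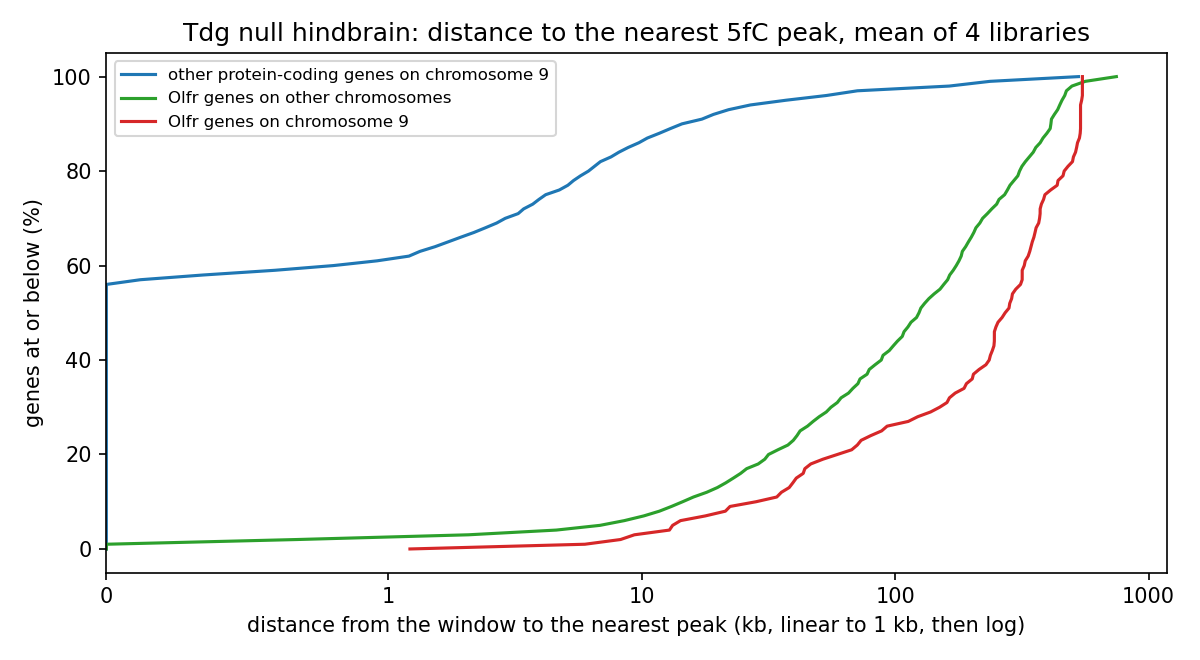
Percentiles of the distance from a gene window to the nearest 5fC peak in Tdg null hindbrain (kb, linear to 1 kb and logarithmic beyond), with the distance of each gene averaged over 4 libraries first. The curve of the Olfr genes of chromosome 9 lies to the right of both others through its middle, with a median of 272 kb against 124 kb for Olfr genes of other chromosomes and 0 for other protein-coding genes of chromosome 9.

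The scarcity covered the spaces between the genes as well. In Tdg null hindbrain, windows of the first group of members had a share of 0 and the spaces between them 0.0878% ± 0.0661 (SD, n = 4). Windows of the second group had 0.0417% ± 0.0341 and the spaces between them 0.213% ± 0.0148. On both sides of the second group the level was higher within 1 Mb, at 4.27% ± 0.342 on the side of Olfr151 and 7.75% ± 1.21 on the side of Olfr986. Around the first group the level was 3.22% ± 0.448 beyond Olfr18 but 0.133% ± 0.0651 before Olfr24, close to that of the spaces between its genes. In Tdg null carcass the corresponding values of the second group were 0.332% ± 0.123 for windows, 0.371% ± 0.256 for spaces, 8.07% ± 1.83 before Olfr151 and 13.5% ± 1.67 beyond Olfr986 (SD, n = 2). Spaces of the first group had 0.0579% ± 0.0782 in WT hindbrain. In carcass these spaces had 0.168% ± 0.0581 in WT, above the 0.0897% ± 0.0211 in Tdg null. Spaces of the second group were lower in WT, at 0.00637% ± 0.0127 in hindbrain and 0.116% ± 0.00605 in carcass. The genotypes were not tested here.

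**Figure D3:**
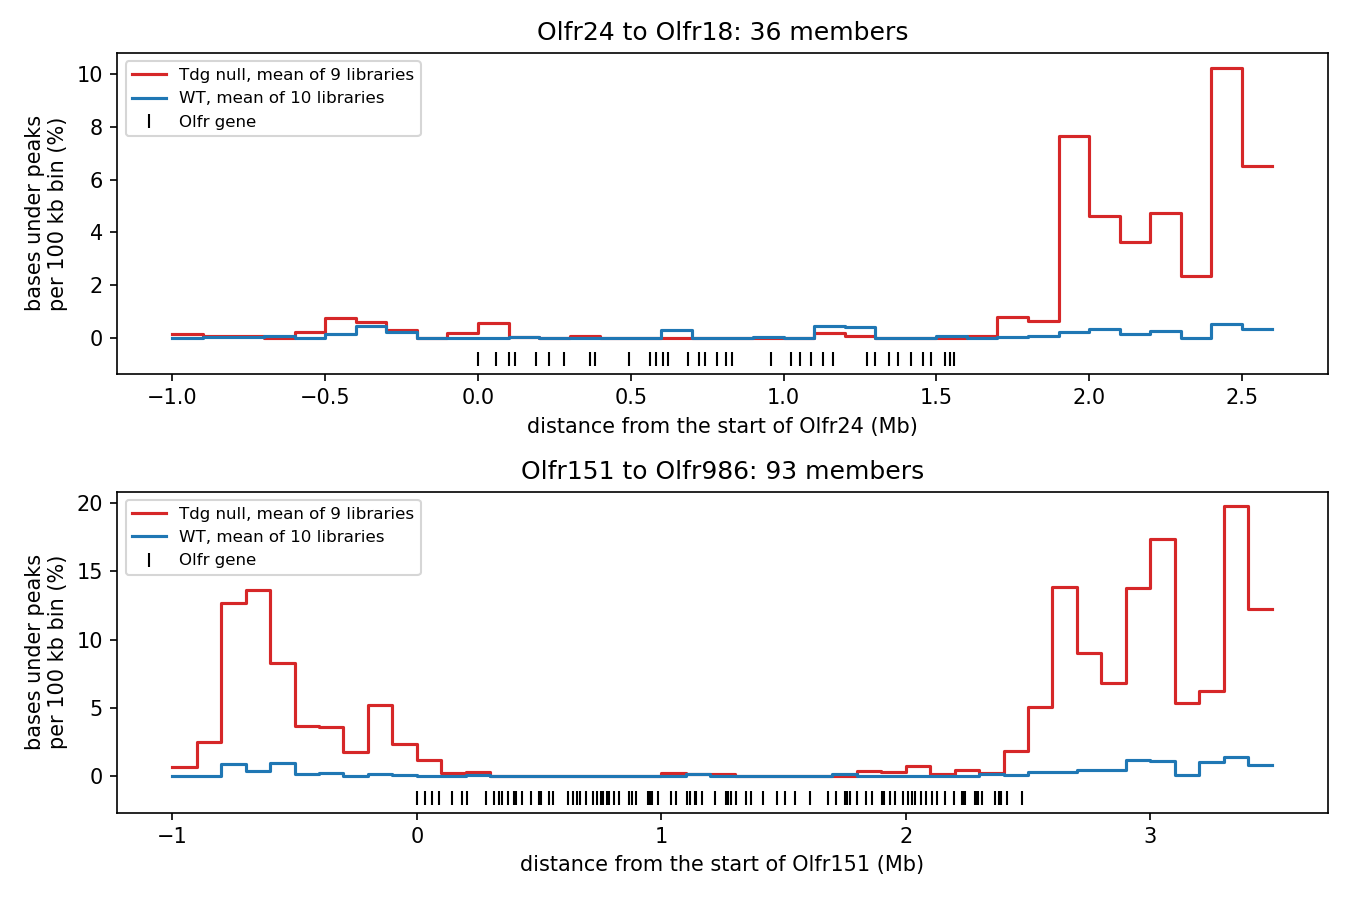
Share of bases under 5fC peaks in bins of 100 kb across both groups of Olfr genes and 1 Mb on both sides, by distance from the first member, for the mean of 9 Tdg null and of 10 WT libraries. Ticks mark the 129 genes. The Tdg null level stayed under 1% in every bin between Olfr24 and Olfr18, and was 13.8% in a bin close beyond Olfr986.

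Non-receptor genes inside the groups were few. Of 6 other protein-coding genes that lie between the first and the last member of a group, only Vwa5a had a peak, in 3 Tdg null libraries, and the zinc finger gene Zfp317, AW551984, 1700001J11Rik, Tmem225 and Gm4893 had none in the 19 libraries. Over these 6 genes together, the share of bases under peaks was 0.511% in Tdg null hindbrain of litter A and 0 in the other 3 litters, and 0.922% in Tdg null heart of pair a and 0 in pair b. In Tdg null carcass the mean was 0.128%, against 0.225% for the members, and in Tdg null liver it was 0, against 0.149%.

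The few members with peaks differed in tissue. The bases of the window under peaks are given for each of them, and a library that is not mentioned had 0. Olfr150 (chr9:39544402-39545340) had 540 and 440 bases in Tdg null heart of pairs a and b, 440 in Tdg null liver, 440 and 440 in Tdg null carcass, and 140 in WT liver of pair a. It had 0 bases in all 8 hindbrain libraries, so that its Tdg null heart, liver and carcass libraries did not overlap its Tdg null hindbrain libraries. Of all genes, 5.45% were apart in this way, and Olfr150 was the only member among them, while 0.708% of all genes and no member were apart in the other direction. The mean share of its window over the 9 Tdg null libraries was 5.17%, the highest of the members.

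Olfr978 (chr9:39801397-39802332) had 32 and 232 bases in Tdg null hindbrain of litters Q and Z, 432 and 332 in Tdg null heart, and 332 and 432 in Tdg null carcass of pairs a and b. It also had 200 bases in WT liver and 232 in WT carcass of pair a, and 0 in Tdg null liver. With peaks in 8 libraries, 6 Tdg null and 2 WT, it was the member called most often, and its mean Tdg null share was 4.03%.

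Olfr983 (chr9:39899602-39901143) had 300 bases in Tdg null heart of pair a and 500 in each Tdg null carcass library. Olfr986 had 500 and 200 bases in Tdg null heart of pairs a and b and 400 in Tdg null carcass of pair b. Neither had a peak in hindbrain or liver, and their mean Tdg null shares were 2.61% and 2.44%. Olfr978, Olfr983 and Olfr986 lie near the distal end of the second group, toward the edge where the level of the neighbouring DNA was high. Apart from Olfr983, the members between Olfr978 and Olfr986 had no peak in any of the 19 libraries. The part of position was not tested.

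Each of 3 further members had a peak in 2 Tdg null libraries of different tissues. Olfr958 (chr9:39357513-39358454) had 200 bases in hindbrain of litter Z and 400 in liver. Olfr875 (chr9:37580222-37581225) had 200 bases in hindbrain of litter A and 400 in carcass of pair b. Olfr145 (chr9:37704910-37705960) had 200 bases in hindbrain of litter Q and 300 in liver, at separate places. Their mean Tdg null shares were 1.35%, 1.33% and 1.10%.

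The remaining 3 were called in 1 library each. Olfr959 had 199 bases and Olfr974 a single base at the edge of its window, both in Tdg null heart of pair a, the library with the most peaks. Olfr18 had 300 bases in an intron, in WT liver of pair a, and none in any Tdg null library. It was the only member of the first group with a peak.

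**Figure D4:**
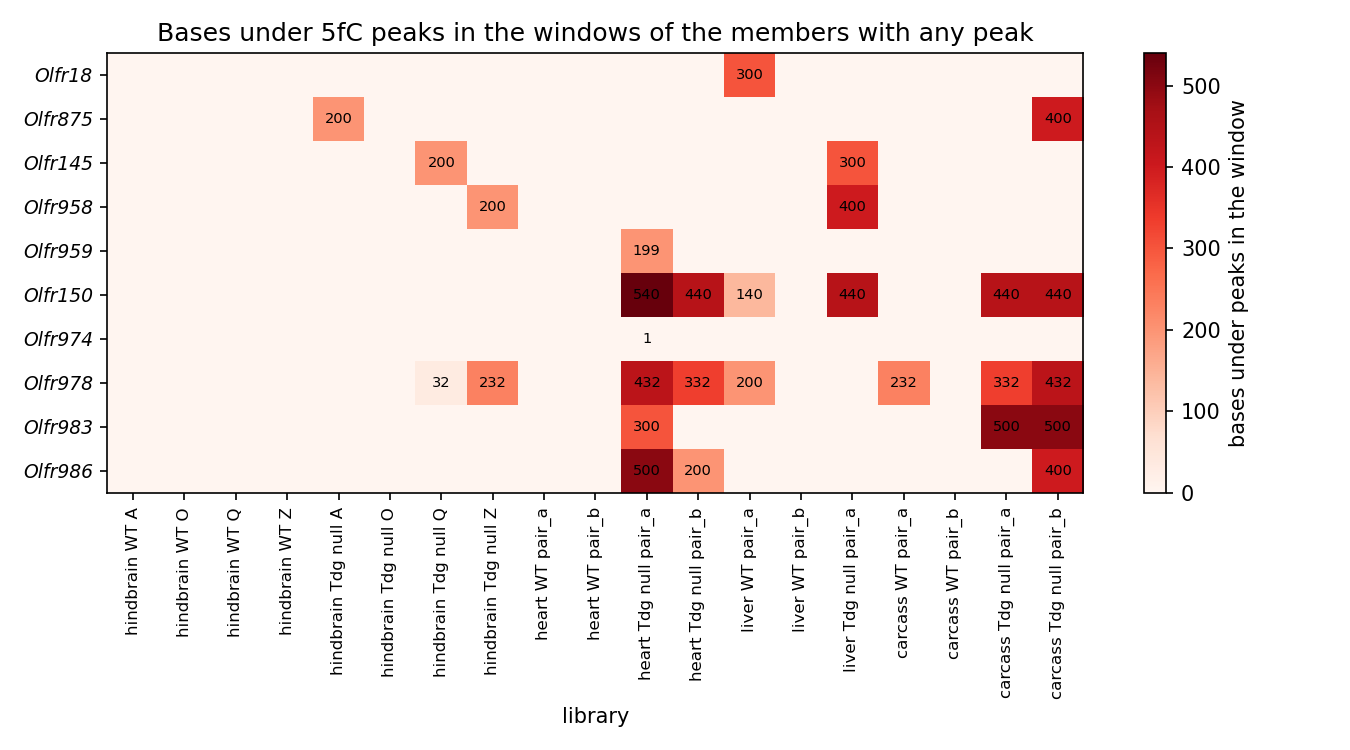
Bases of the window under 5fC peaks for the 10 members with any peak (rows, in genomic order) in each of 19 libraries (columns). The 8 WT libraries without a peak in any window stay empty, and Olfr978 and Olfr150 have entries in the most libraries, 8 and 6.

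Most of this signal was not in the receptor genes themselves. The peaks fell on 11 separate stretches, 5 upstream of the gene, 3 downstream and 3 over the gene. Those over the gene were the intronic stretch of Olfr18 and the starts of Olfr145 and Olfr958. The stretch of Olfr150 began 2399 bp and that of Olfr978 began 2504 bp downstream of the annotated start, beyond the end of the coding exon. The stretches were seen in more than 1 library at 6 places, and 5 were seen in a single library. The overlap of the calls differed between stretches. The printed bases next to Olfr150 were under a peak in all 6 of its libraries, and those next to Olfr978 in up to 7 of its 8. At Olfr986 the 3 calls shared 100 bp of a stretch of 600 bp.

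The stretch next to Olfr150 was repeated sequence. Of its 751 runs of 50 bases, 60.9% occurred again in the genome, up to 211 times, with a median of 7 copies. A read that lies within such a run has no single best place, and the part of repeated sequence in this peak was not tested. Without Olfr150, 9 members have a peak in any library, and each count below that includes it is lower by 1. Of the other 10 stretches, 9 held no repeated run of this length, and the stretch of Olfr18 held 5.98% with up to 6 copies. The member windows as a whole were measured with longer runs, so their values cannot be set beside those of the stretches. Of their runs of 100 bases, 2.67% had an exact copy elsewhere, against 2.45% for other protein-coding genes of chromosome 9. Copies that are similar but not identical were not counted, and the part of repeated sequence in the members' low shares was not tested.

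The genotypes were compared in hindbrain gene by gene, and a gene was counted as higher when each of its 4 Tdg null libraries had a larger share of bases under peaks than each of its 4 WT libraries. Of all 37273 genes 36.8% were higher in this sense, and 0 of the 129 members were, since no member had a peak in all 4 Tdg null hindbrain libraries. Among Olfr genes of other chromosomes it was 1.55%, and among short protein-coding genes of chromosome 9 it was 18.9%, with the same windows. With windows of 10 kb, 3 members and 55.1% of all genes were higher. In the other direction 0.0402% of all genes were called and no member. The smallest unadjusted p of a member was 0.429, for Olfr978 (two-sided exact permutation test). The smallest p this design allows, 0.0286, was reached by 36.9% of all genes, but after Benjamini-Hochberg adjustment over all genes it became 0.0775, so that the exact permutation test called no gene at 0.05.

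Pairing Tdg null and WT embryos within the 6 litters, each litter entering as the mean of its tissues, gave the same count of members. Of all genes 36.2% were higher in Tdg null in 6 of 6 litters, and 0 members were. Olfr978 was higher in 4 litters, the most of any member, and no member had an unadjusted p under 0.05 (two-sided exact sign-flip permutation test). The smallest adjusted p of any gene was 0.0862, and no gene passed 0.05, whereas 36.3% were under 0.05 before adjustment.

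In heart, both Tdg null libraries lay above both WT libraries at 45.3% of all genes and at 3 members, Olfr150, Olfr978 and Olfr986. In carcass the share was 43.7% of all genes and again 3 members, Olfr150, Olfr978 and Olfr983. Both tissues together gave 33.9% of all genes and 2 members, Olfr150 and Olfr978. This count depended on the settings. It was 0 with gene bodies alone (27.7% of all genes under that setting), with the gene body and 2 kb upstream (31.2%) or with peaks of at least 600 bp (27.5%). It was 1 with peak midpoints (29.4%) or scaled shares (17.3%), and 6 with windows of 10 kb (50.3%). The single Tdg null liver library lay above both WT liver libraries at 38.5% of all genes and at 3 members, Olfr150, Olfr145 and Olfr958. Groups of 2 cannot go below an exact permutation p of 0.333, so these counts carry no test. Among Olfr genes of other chromosomes the share was 2.68% in heart and 1.96% in carcass.

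The part of CpG density in the members' low shares was not tested, and its values are given beside them. The windows had a median of 3.60 CpG sites per kb (1.62 to 10.5) and a GC content of 35.8%, against 12.3 CpG sites per kb and 45.4% for other protein-coding genes of chromosome 9. Olfr genes of other chromosomes had 4.27 CpG sites per kb. Across all other protein-coding genes of the genome, the share under peaks in Tdg null hindbrain was small where CpG sites were few: 0.130% ± 0.0431 (SD, n = 4) for the 586 genes with fewer than 4 per kb, 1.04% ± 0.198 at 4 to 6 per kb and 2.41% ± 0.368 at 6 to 8 per kb. The members stayed below within each class, at 0.00997% ± 0.0199 for 81 members, 0.0289% ± 0.0579 for 34 members and 0.153% ± 0.278 for 11 members, and the SD of the last 3 values is larger than the values. Among genes of at most 2000 bp the gap was smaller. The members had 0.0147% below 4 per kb, 0.0314% at 4 to 6 and 0.233% at 6 to 8, against 0.0878%, 0.335% and 0.876% for the other protein-coding genes of that length. Genes of that length with a peak in any of the 4 libraries were also counted. In these classes the 68, 32 and 10 members had 1.47%, 3.13% and 20%. The 214, 331 and 247 other protein-coding genes had 2.34%, 7.25% and 19.4%. By this count the members were not lower in the last class, which holds only 10 of them.

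**Figure D5:**
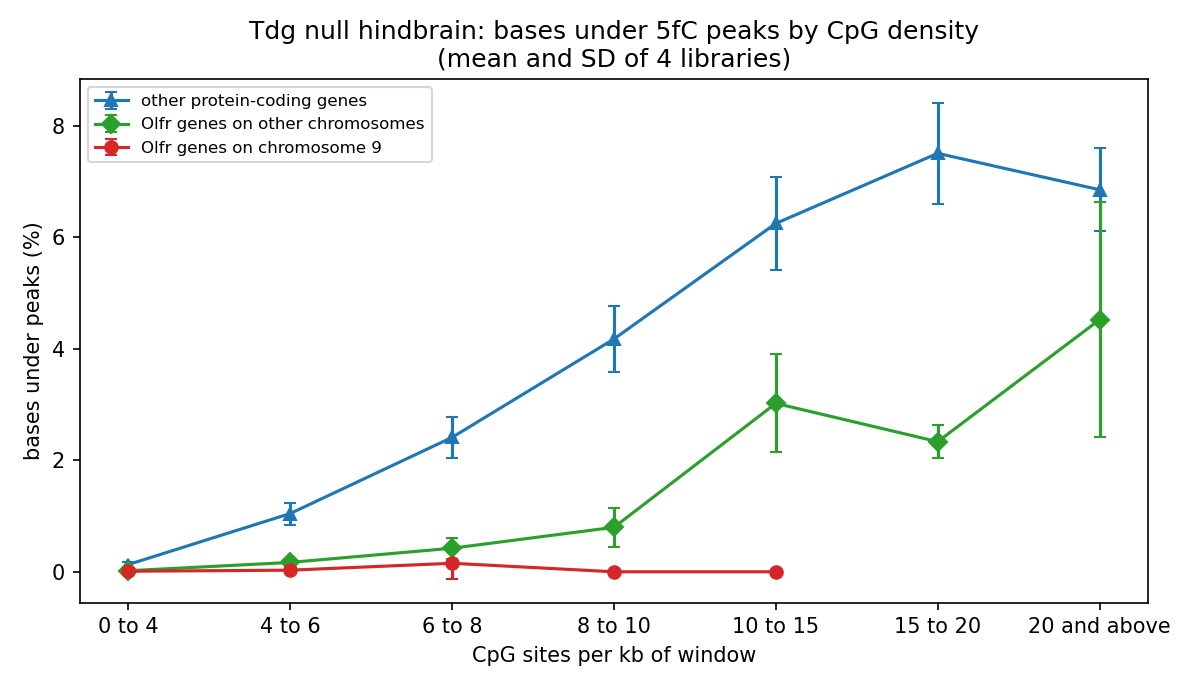
Share of bases under 5fC peaks in Tdg null hindbrain by the CpG density of the window (mean and SD of 4 libraries) for Olfr genes of chromosome 9, Olfr genes of other chromosomes and other protein-coding genes. The classes from 8 CpG sites per kb upward hold 3 members in all, with a share of 0. Below them the members lie under the other genes in each class.

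Of the 11 stretches under peaks, 9 were denser in CpG sites than the window they touch. The stretches are taken whole here, and some run past the end of the window. Some held few CpG sites, such as 2 in 400 bp at Olfr875. The same count is not given for peaks at other genes, so it has no background here. At Olfr150 the stretch held 21.25 CpG sites per kb, against 4.66 in its window, and at Olfr978 12.5 against 7.09. The exceptions were the upstream stretch of Olfr145, with 3.33 against 4.36, and the stretch of Olfr986, with 6.67 against 7.58.

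Other receptor families and other Olfr loci were also poor in peaks. In Tdg null hindbrain Olfr genes of other chromosomes had a share of 0.324% ± 0.0876 (SD, n = 4), and the vomeronasal receptor genes Vmn1r and Vmn2r, which serve pheromone detection, had 0.0829% ± 0.0285, both above the 0.0282% of the members. In the other Tdg null tissues the order was not the same. Olfr genes of other chromosomes had 0.671% in heart, 0.328% in carcass and 0.175% in liver, against 0.192%, 0.225% and 0.149% for the members, and the vomeronasal genes lay below the members there, with 0.0731%, 0.0644% and 0.0450%. At matched CpG density in Tdg null hindbrain the members had 0.00997% against 0.0189% for the other Olfr genes below 4 CpG sites per kb, 0.0289% against 0.168% at 4 to 6 and 0.153% against 0.423% at 6 to 8. Over all 9 Tdg null libraries the same classes gave 0.0421% against 0.0309%, 0.193% against 0.190% and 0.511% against 0.542%. By chromosome, in hindbrain, the Olfr genes of chromosome 2 (283 genes) had 0.0377% and those of chromosome 10 (67 genes) had 0, on either side of chromosome 9 at 0.0282%. Those of chromosome 7 (237 genes) had 0.257%, those of chromosome 11 (79 genes) 1.21% and the 9 on chromosome 15 had 3.39%. A low share was thus also seen at other large sets of Olfr genes, and the chromosomes were not tested against each other.

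Many genes that serve odour detection without being receptors had larger shares than the receptor genes. A list of 32 genes for receptor signalling and receptor choice was examined, of which 31 could be matched to a single gene. In Tdg null hindbrain their median share was 5.06%, against 1.31% over all genes and 0 over the members. Of the 31 genes, 24 had groups apart in hindbrain, 24 in heart and 23 in carcass, all higher in Tdg null, where the background was 36.8%, 45.3% and 43.7% as above. The median length of these genes was 45049 bp, against 951 bp for the members, and the part of gene length in these counts was not tested. Among the highest shares were those of Omp, the marker protein of mature olfactory neurons, with 23.2% ± 2.78 (SD, n = 4), Ldb1, a cofactor that joins receptor enhancers, with 12.03% ± 1.30, the stress transcription factor Atf5 with 11.9% ± 1.14, and Ebf3 and Ebf2, which bind receptor promoters, with 11.9% ± 2.95 and 10.7% ± 1.87. WT hindbrain had 0 at Omp and Atf5, 1.80% ± 2.30 at Ldb1, 1.503% ± 1.74 at Ebf3 and 0.736% ± 1.16 at Ebf2. At the low end, 7 of the 31 genes lay below the median of all genes. Emx2, a homeobox gene of the olfactory epithelium, had no peak in any library. The homeobox gene Lhx2 and the receptor transporter gene Rtp1 had 0 in Tdg null hindbrain, and the channel genes Trpc2 and Cnga2 had 0.212% ± 0.424 and 0.638% ± 0.944. Omp is 2143 bp long, against a median of 951 bp for the members, and its window held 19.2 CpG sites per kb.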

How the data were processed

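Reads were trimmed with Trim Galore by the authors, who aligned them with Bowtie2 (default settings, NCBIM37, mm9) and called the peaks of every pull-down separately with MACS as built into SeqMonk. The p-value cutoff was 1e-05 and fragments were taken as 200 bp long. The deposited files hold positions only, the start and end of each peak on a grid of 100 bp, with no height, score or read count. Use of an input library and removal of duplicates are not given in the sources used here. The depth of the libraries is unknown, and few peaks in a library give low precision. The unit of the hindbrain permutation test is the embryo, and that of the sign-flip test is the litter. Neither p-value separates a change at a gene from the difference in peak number between the genotypes.

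Positions were read as 1-based and inclusive, and 21 assembled chromosomes were kept. Genes came from the GENCODE annotation of NCBIM37. For each gene and library the share of window bases (gene body and 2 kb on both sides) under peaks was taken with Python 3.11.15 (scipy 1.17.1, numba 0.67.0, pandas 2.3.3 and numpy 2.4.6). Figures used matplotlib 3.10.9. Hindbrain was compared by exact permutation of 4 against 4 libraries and litters by exact sign flips, with Benjamini-Hochberg adjustment over all genes. Coverage and tests were checked on simulated data. A peak list allows no count model. An even spread is the number of a library's peaks that would touch the windows were its peaks placed evenly over the ungapped genome. Values relative to the genome are linear ratios and the genotype difference is in percentage points, where log2 ratios had been planned, because some libraries had 0 bases.

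The members and the list of signalling genes were chosen with earlier results of these data known. Members named are the 12 with the highest mean Tdg null share, of which only the 9 with a peak are named because the rest tie at 0, those with a WT peak, and the first and last of each group. From the list, the 6 with the highest Tdg null hindbrain share and those with no peak are named, except that the result for 1 gene is not reported here. Ebf1 had 2 annotation entries and was dropped. The pseudogenes, the non-receptor genes inside the groups and the members called only with windows of 10 kb were named outside this rule. So were 4 signalling genes with low shares in Tdg null hindbrain. All of these but the pseudogenes were named after their values were seen. Alternatives changed the window, the peaks, the members, the scale and the libraries.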

Additional observations from a re-analysis of the deposited data

Results flagged for a closer look

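In Tdg null hindbrain, 1 library stood apart from the other 3 at each of the 4 members that had a peak there. Olfr875 had 3.997% of its window under peaks in litter A and 0 in the others. Olfr145 had 3.96% in litter Q and 0 in the others. Olfr958 had 4.05% in litter Z and 0 in the others. Olfr978 had 4.70% in litter Z, next to a smaller value in litter Q and 0 in A and O. These were 4 of the 5 sets of 4 libraries with any value above 0, the fifth being the share over all members. Dixon's 95% criterion marks about 1 in 20 sets of normally distributed values by chance. That rate does not hold for shares that are mostly 0. Any gene with a peak in exactly 1 of 4 libraries meets the criterion.

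Olfr978 also differed in direction between tissues. In liver its Tdg null share minus the WT share was -4.05 percentage points in pair a, the only liver pair used, whereas both heart pairs were positive. In carcass the mean difference was 5.39 percentage points, opposite to liver. These differences between tissues were not tested.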

How the results depend on the processing

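The members stayed far below the genome and the other genes of chromosome 9 under each setting tried for Tdg null hindbrain. The ratio to the genome, 0.00782 as reported, was 0.0322 with windows of 10 kb, 0.0261 with peak midpoints in place of bases and 0 with peaks of at least 600 bp. The ratio to other genes of chromosome 9, 0.00560 as reported, was 0.0239, 0.0194 and 0 under these settings, and 0.00615 against protein-coding genes of at most 2000 bp, a comparison added after seeing the data, as was that of tissues at Olfr150. Leaving out each library in turn gave 0.00529 to 0.0104 for the first ratio and 0.00375 to 0.00747 for the second. The Tdg null minus WT difference over the members in hindbrain, 0.0282 percentage points, was 0.105 with windows of 10 kb and 0 with peaks of at least 600 bp, and ranged from 0.0188, without litter Z, to 0.0376, without litter O, when a library was left out. With the litters as replicate block, the paired difference was 0.0282 and 0 members were higher. In windows of 10 kb, 3 members were higher in Tdg null hindbrain (Olfr875, Olfr972 and Olfr985; 55.1% of all genes) and 1 in all 6 litters (Olfr875; 55.2% of all genes), against 0 as reported, and leave-one-out runs gave 0 to 0 for both counts. The count of 2 members higher in heart and carcass was 6 with windows of 10 kb, where 50.3% of all genes were higher (Olfr875, Olfr150, Olfr978, Olfr979, Olfr980 and Olfr984, of which Olfr978, Olfr979 and Olfr980 had the same bases under peaks within reach), 1 with midpoints, 1 with shares scaled to each library's genome-wide share, and 0 with gene bodies, with the 2 kb upstream and gene body, or with peaks of at least 600 bp. It was 3 without the Tdg null carcass of pair a or without the Tdg null heart of pair b, and 2 otherwise, so leave-one-out gave 2 to 3. The cause of these shifts was not tested beyond the wider or narrower windows themselves. Counted as peak midpoints, the Tdg null minus WT difference over the members in hindbrain was 1.31 per Mb of member windows. That unit cannot be set beside percentage points. The difference was not run with scaled shares, which also have another unit. The small number of peaks limits what WT libraries can show, and the peak lists give no means to set a common threshold across libraries.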
